A study of Mus musculus with 6 samples.

Results

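The genes described here are 49 genes of the sarcomere and Z-disc, the contractile and anchoring structures of striated muscle, listed by name for their known functions. They cover the thin filament, the thick filament with titin, the M-band, the Z-disc with the costamere, and the ankyrin repeat proteins of the titin spring. Myosin heavy chains were left out of the list. Of the 49 listed genes, 45 reached 1 CPM (counts scaled to the size of the library) in 3 or more libraries and could be tested, among 15009 such genes of 26814 gene symbols. The tissue was the top lip, with skin and the muscle beneath it, of adult female C57BL/6J mice aged 2 to 6 months. The WT group was 3 wild type mice, and the KO group was 3 mice of the Gtf2ird1 tm1Hrd line, which carries a targeted mutation of Gtf2ird1 and was described as a knockout. Each mouse gave 1 mRNA library, so every value has n = 3 mice per genotype.

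In a sarcomere, thick filaments of myosin slide past thin filaments of actin. Tropomyosin and the troponin complex lie along the thin filament and make the sliding depend on calcium. Titin runs from the Z-disc, where alpha-actinin crosslinks the thin filaments, to the M-band, where myomesins crosslink the thick filaments. Fast and slow fibres build the same machine from different isoforms of troponin, myosin light chain and myosin-binding protein C. The muscle of the face and lip is mainly made of fast fibres. GTF2IRD1 was also named MusTRD, a muscle TFII-I repeat protein, because it was found to bind an enhancer of the slow troponin I gene, Tnni1.

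Total counts per library ranged from 20164081 in KO1 to 29491767 in KO2, and 3 counts, the limit that a count of 0 allows, stood for 0.0986 to 0.154 CPM. Gtf2ird1 itself had 78.2, 70.2 and 70.7 CPM in WT1, WT2 and WT3 and 166, 162 and 144 CPM in KO1, KO2 and KO3. It was higher, not lower, in the KO libraries (log2 fold change 1.11 with SE 0.13, adjusted p = 0.0018), and the counts do not separate reads of a targeted allele from reads of an intact one. A KO library is therefore, throughout, a library labelled KO, and every direction below rests on that label. The muscle of the samples was checked with 12 other skeletal muscle genes, such as Ckm, Atp2a1 and Ryr1, which summed to 5855 to 9176 CPM in the WT libraries and 2122 to 5207 CPM in the KO libraries. Of 9 cardiac genes, Nppa, Myh6, Myl7, Mybpc3 and Ryr2 were near 0 (0 to 15 counts in any library), while Myl4, Tnnt2, Tnni3 and Nppb reached 22 to 244 counts. The 45 tested sarcomere genes and the 4 untested ones took 1.61% to 1.93% of the counts of the WT libraries and 0.734% to 1.10% of those of the KO libraries.

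Log2 fold changes of KO over WT libraries were negative for almost all of the tested sarcomere genes, while a smaller part of them passed the threshold. By edgeR's quasi-likelihood test with Benjamini-Hochberg adjustment over all 15009 genes, 12 of the 45 fell at an adjusted p under 0.05 and 0 rose. None rose at an unadjusted p under 0.05 either, and edgeR's exact test and DESeq2 also gave 0. Of all tested genes, 2.09% were called lower and 4.38% higher. With edgeR's exact test 32 of the 45 were lower, against 7.15% of all tested genes, and with DESeq2 34 were, against 7.61%. Of the 45, 38 had an unadjusted p under 0.05, all with a negative log2 fold change, against 16.0% of all tested genes with such a p and a negative log2 fold change. The median log2 fold change of the 45 was -1.0, against -0.02 over all tested genes, and 43 of the 45 were negative. Every KO library lay below every WT library for 38 of the 45, which was so for 18.1% of all tested genes, and every KO library lay above every WT library for 1, Tpm3, against 13.5% of all tested genes. The plot of log2 fold changes by role shows how narrow the range was, with most of the 45 between -0.5 and -1.5. The number that passed depended on single libraries. KO3 lay closer to the WT libraries than KO1 and KO2 did for most of the 45. Without KO3, 37 of the 45 passed, against a background of 16.2% of tested genes called lower in that fit. It was 0 without WT1 (0.202% of all tested genes), without KO1 (0.190%) and without KO2 (0.122%), 1 without WT2 (0.419%) and 2 without WT3 (0.269%). CPM are shares of a library. In bulk tissue, fewer muscle cells, less RNA per muscle cell and more RNA from other tissue of the lip cannot be told apart.

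**Figure D1:**
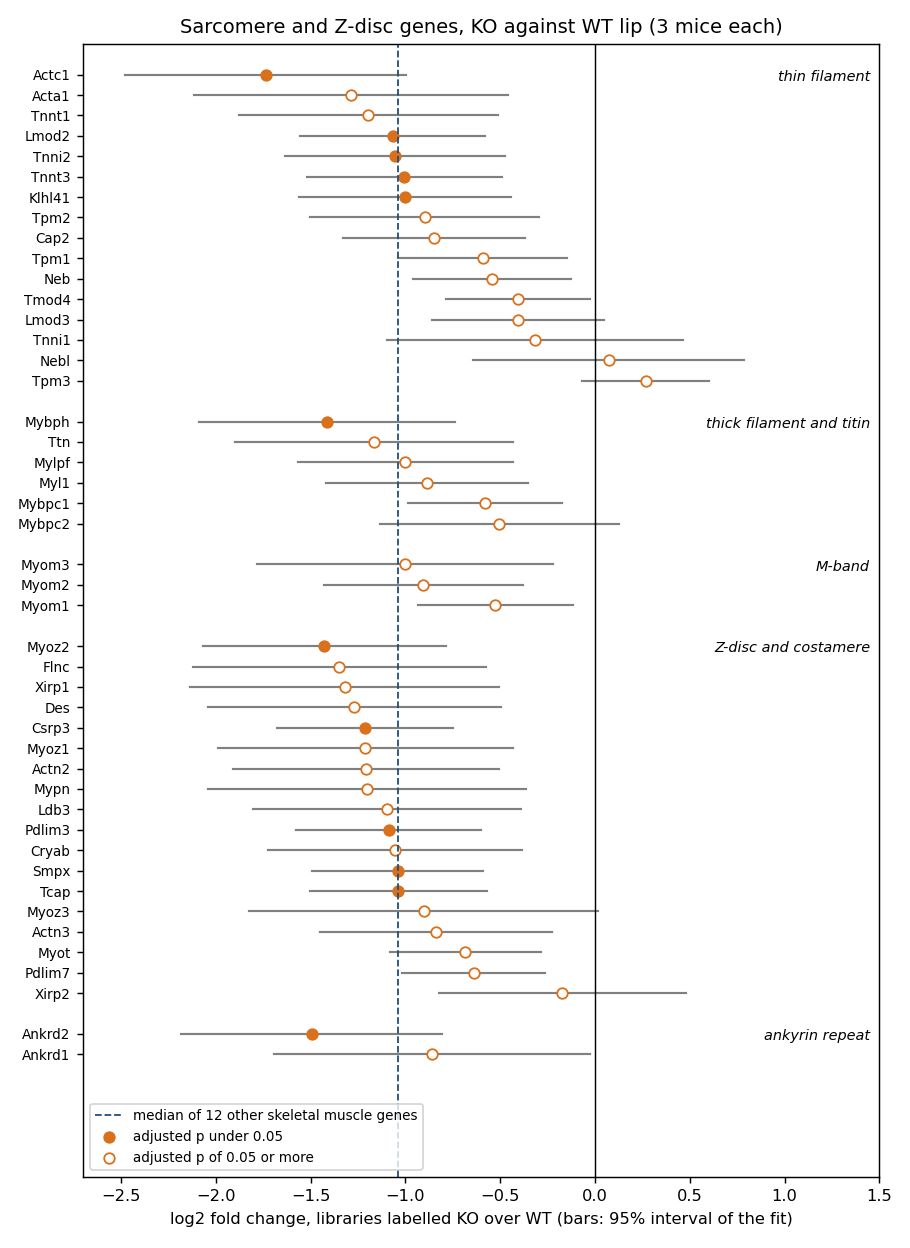
Log2 fold change (x axis, KO libraries over WT libraries) of the 45 tested sarcomere and Z-disc genes, grouped by role, with 95% intervals of the fit; filled points passed an adjusted p of 0.05. The 12 filled points all lie left of 0, Nebl and Tpm3 alone lie to its right, and the dashed line is the median of 12 other skeletal muscle genes, -1.04.

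Of 18 thin filament genes 16 were tested and 5 fell, and the median of their log2 fold changes was -0.87. Actc1 (GRCm38 chromosome 2, 114047282 to 114053548), the cardiac alpha-actin that skeletal muscle also makes during development, had 27.8, 15.5 and 26 CPM in WT1, WT2 and WT3 and 4.91, 5.82 and 10.1 CPM in KO1, KO2 and KO3. All KO libraries were below all WT libraries, and Actc1 had the lowest fold change of the 45 (log2 fold change -1.74 with SE 0.32, adjusted p = 0.0203), with a KO mean of 30% of the WT mean. Acta1, the skeletal alpha-actin of the adult thin filament and the most abundant of the listed genes per length, had 3639.9, 2025 and 2582 CPM in WT1, WT2 and WT3 and 716, 942 and 1721 CPM in KO1, KO2 and KO3. Its groups did not overlap either, but WT1 held 3639.9 CPM against 2025 CPM in WT2, and it did not pass (log2 fold change -1.29 with SE 0.36, adjusted p = 0.0718). Acta1 did pass with edgeR's exact test (adjusted p = 0.0014) and with DESeq2 (adjusted p = 0.0042). Actc1 and Acta1 code for nearly the same protein, but their annotated transcripts share no exact stretch of 100 bases.

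Among the troponins, the fast isoforms carried nearly all counts. Tnnt3 (chromosome 7, 142498836 to 142516009), fast troponin T, which anchors the complex to tropomyosin, had 1375, 1200.0 and 1124 CPM in WT1, WT2 and WT3 and 460.5, 577 and 805 CPM in KO1, KO2 and KO3. Tnni2 (chromosome 7, 142441808 to 142444410), the fast inhibitory subunit, had 868, 672 and 751 CPM in WT1, WT2 and WT3 and 275, 309 and 520.0 CPM in KO1, KO2 and KO3. Both had KO1 lowest, KO3 highest of the KO libraries and no overlap between genotypes, and both fell: Tnnt3 to 49.8% of the WT mean (log2 fold change -1.01 with SE 0.22, adjusted p = 0.0397) and Tnni2 to 48.1% (log2 fold change -1.05 with SE 0.25, adjusted p = 0.0484). The call of Tnni2 held in 4 of the 8 alternatives other than left-out libraries, with adjusted p from 0.0015 to 0.054. Tnnt1, slow troponin T, had 8.24, 7.95 and 9.44 CPM in WT1, WT2 and WT3 and 2.15, 3.78 and 5.21 CPM in KO1, KO2 and KO3. Its groups did not overlap, and it just missed the threshold (log2 fold change -1.20 with SE 0.30, adjusted p = 0.0543). Tnnt1 was called lower in 3 of the 8 alternatives. Tnni1 (chromosome 1, 135779434 to 135810989), slow troponin I, was the least abundant tested troponin, with 2.65, 1.11 and 2.29 CPM in WT1, WT2 and WT3 and 1.79, 1.41 and 1.69 CPM in KO1, KO2 and KO3. The KO values lay inside the WT range, since WT2 was the lowest of all 6 libraries (log2 fold change -0.32 with SE 0.34, adjusted p = 0.553). Tnnc1, the calcium-binding subunit of slow and cardiac muscle, had 4, 8 and 2 counts in the WT libraries and 0, 3 and 2 counts in the KO libraries and was not tested. Tnnc2, the fast calcium-binding subunit, had 5, 1 and 0 counts in the WT libraries and 1, 1 and 0 counts in the KO libraries and was not tested. Exons of Ube2c on the opposite strand cover 74.0% of the exon bases of Tnnc2, and whether counting used strand is not given in the sources used here, and its near absence beside Tnnt3 and Tnni2 is not read here as a level of expression.

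Of the genes for proteins that set the length and stability of the thin filament, Lmod2 and Klhl41 fell, and Cap2, Lmod3, Tmod4 and Neb did not pass. Lmod2 (chromosome 6, 24597762 to 24605414), leiomodin 2, which starts and lengthens actin filaments, had 70.4, 84.1 and 54 CPM in WT1, WT2 and WT3 and 28.8, 29.4 and 41.3 CPM in KO1, KO2 and KO3. Klhl41 (chromosome 2, 69670120 to 69684230), a kelch protein that stabilises nebulin, had 199.9, 173 and 154 CPM in WT1, WT2 and WT3 and 61.9, 80.2 and 121 CPM in KO1, KO2 and KO3. In both genes each KO library was below each WT library, and Lmod2 fell to 47.7% of the WT mean (log2 fold change -1.07 with SE 0.21, adjusted p = 0.0266). Klhl41 fell to 49.9%, at the edge of the threshold (log2 fold change -1.0 with SE 0.24, adjusted p = 0.0499), while Cap2, an actin-depolymerising protein with a log2 fold change of -0.85 (adjusted p = 0.0525), was just beyond it. The call of Klhl41 held in 2 of the 8 alternatives, with adjusted p from 0.0022 to 0.0657. Cap2 was called lower in 2 of the 8. Lmod3, the leiomodin of skeletal muscle, had 18.7, 17.7 and 18.6 CPM in the WT libraries and 10.7, 13.2 and 17.6 CPM in the KO libraries and did not pass (log2 fold change -0.40 with SE 0.20, adjusted p = 0.207). Tmod4, which caps the pointed end of the filament, had 23.7, 29.8 and 25.1 CPM in the WT libraries and 16.7, 21.6 and 21 CPM in the KO libraries and did not pass (log2 fold change -0.40 with SE 0.16, adjusted p = 0.15). The groups of Lmod3 came close to each other, with KO3 of Lmod3 at 17.6 CPM beside WT2 at 17.7 CPM. Neb, nebulin, the giant ruler of the thin filament, had 701, 590.0 and 883 CPM in WT1, WT2 and WT3 and 512, 531 and 450.5 CPM in KO1, KO2 and KO3. The KO libraries were close to each other and all below WT2, and the change did not pass (log2 fold change -0.54 with SE 0.18, adjusted p = 0.101).

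None of the tropomyosins passed in this test, while Tpm2 passed with edgeR's exact test and with DESeq2, and Tpm1 passed with DESeq2. Tpm2, the beta-tropomyosin, had 1499.6, 978 and 1157 CPM in the WT libraries and 484, 582 and 884 CPM in the KO libraries (log2 fold change -0.90 with SE 0.26, adjusted p = 0.0782). Tpm1, the alpha-tropomyosin of fast and cardiac muscle, had 879, 924 and 847 CPM in the WT libraries and 459.5, 559.9 and 738 CPM in the KO libraries (log2 fold change -0.59 with SE 0.19, adjusted p = 0.095). Both were below WT in every KO library. Tpm3 (chromosome 3, 90072649 to 90100902), which codes for the slow alpha-tropomyosin and also for tropomyosins of non-muscle cells, had 192, 169 and 201 CPM in WT1, WT2 and WT3 and 209, 207 and 259.9 CPM in KO1, KO2 and KO3. It was the only one of the 45 with every KO library above every WT library, and the difference did not pass (log2 fold change 0.27 with SE 0.15, adjusted p = 0.251). Of the 100-base stretches of the Tpm3 transcripts, 15.8% also occur in Tpm3-rs7. Nebl (chromosome 2, 17343909 to 17731464), which codes for nebulette, a nebulin relative of the cardiac Z-disc, and for a short form found in many cell types, had 44, 53.9 and 43 CPM in WT1, WT2 and WT3 and 64.8, 57.7 and 25.6 CPM in KO1, KO2 and KO3. KO1 and KO2 were above all WT libraries and KO3 was below them (log2 fold change 0.07 with SE 0.31, adjusted p = 0.894), and without KO1 the log2 fold change of Nebl was -0.11.

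In the thick filament, 1 of the 6 tested genes of 8 listed fell, with a median log2 fold change of -0.94. Mybph (chromosome 1, 134193448 to 134201232), myosin-binding protein H, had 63.1, 41.9 and 41.6 CPM in WT1, WT2 and WT3 and 12.4, 16.4 and 26.2 CPM in KO1, KO2 and KO3. The KO libraries were all below the WT libraries, at 37.5% of the WT mean (log2 fold change -1.42 with SE 0.29, adjusted p = 0.0315), and exons of Adora1 on the opposite strand cover 49.9% of the exon bases of Mybph. Ttn, titin, whose exons sum to 116825 bases, had 3548, 3207 and 4599 CPM in WT1, WT2 and WT3 and 2220.4, 978 and 1857 CPM in KO1, KO2 and KO3. Unlike most of the listed genes its lowest KO library was KO2 and not KO1, and it did not pass (log2 fold change -1.17 with SE 0.32, adjusted p = 0.0685). Ttn was called lower in 4 of the 8 alternatives, edgeR's exact test and DESeq2 among them. For the fast light chains Mylpf, the regulatory chain, and Myl1, the essential chain, every KO library was below every WT library. Neither gene passed in this fit, while both passed with edgeR's exact test and with DESeq2. Mylpf had 911, 650.3 and 659 CPM in WT1, WT2 and WT3 and 282, 329 and 499 CPM in KO1, KO2 and KO3 and lay just outside the threshold (log2 fold change -1.0 with SE 0.25, adjusted p = 0.0521). Myl1 had 821, 649 and 571 CPM in WT1, WT2 and WT3 and 285, 337 and 482 CPM in KO1, KO2 and KO3 and did not pass (log2 fold change -0.89 with SE 0.23, adjusted p = 0.0614). Of its 100-base stretches 4.45% also occur in the pseudogene Mylf-ps.

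The slow or cardiac light chains were at the floor and were not tested. Myl2, the regulatory chain, had 1, 1 and 0 counts in WT1, WT2 and WT3 and 0, 1 and 1 counts in KO1, KO2 and KO3. Myl3, the essential chain, had 0, 0 and 3 counts in WT1, WT2 and WT3 and 1, 0 and 1 counts in KO1, KO2 and KO3. Myosin-binding protein C, which tunes crossbridge speed, was mainly the slow-type isoform. Mybpc1, which fast fibres of many muscles also make, had 359, 364 and 363 CPM in WT1, WT2 and WT3 and 183, 258 and 284 CPM in KO1, KO2 and KO3. Its WT libraries lay within a few CPM of each other and all KO libraries were lower, yet it did not pass (log2 fold change -0.58 with SE 0.18, adjusted p = 0.0829). Mybpc1 was called lower in 1 of the 8 alternatives, DESeq2. Mybpc2, the fast isoform, had 34.4, 29.1 and 15.2 CPM in WT1, WT2 and WT3 and 18.6, 19.6 and 17.4 CPM in KO1, KO2 and KO3. WT3 was the lowest library of all 6, so the genotypes overlapped (log2 fold change -0.50 with SE 0.27, adjusted p = 0.25).

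Of the 3 M-band genes, 0 passed in this fit and 2, Myom2 and Myom3, passed with edgeR's exact test and with DESeq2. All 3 had an unadjusted p under 0.05 and every KO library below every WT library, and their median log2 fold change was -0.90. Myom2, the myomesin typical of fast fibres, had 197, 181 and 173 CPM in WT1, WT2 and WT3 and 68.3, 93.3 and 132 CPM in KO1, KO2 and KO3 (log2 fold change -0.90 with SE 0.23, adjusted p = 0.056). Myom3, the third myomesin, had 165, 97.1 and 119 CPM in WT1, WT2 and WT3 and 36.9, 57.2 and 95.6 CPM in KO1, KO2 and KO3 (log2 fold change -1.0 with SE 0.34, adjusted p = 0.103). KO3 of Myom3, at 95.6 CPM, was just under WT2, at 97.1 CPM. Myom1, found in all striated muscle, had 226, 226 and 245 CPM in the WT libraries and 122, 169.7 and 192 CPM in the KO libraries (log2 fold change -0.53 with SE 0.18, adjusted p = 0.102).

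The Z-disc and costamere group held 18 genes, all tested, of which 5 fell, with a median log2 fold change of -1.09. Csrp3 (chromosome 7, 48830398 to 48848033), the muscle LIM protein, which links the Z-disc to stretch signals, had the lowest p of the 45. It had 60.6, 60.6 and 44.5 CPM in WT1, WT2 and WT3 and 19.8, 21.9 and 29.8 CPM in KO1, KO2 and KO3. The highest KO library was well below the lowest WT library, and the KO mean was 43.1% of the WT mean (log2 fold change -1.21 with SE 0.20, adjusted p = 0.0125). Tcap (chromosome 11, 98383811 to 98384953), telethonin, which clamps the ends of titin, had 376, 420.3 and 315 CPM in WT1, WT2 and WT3 and 154, 155 and 232 CPM in KO1, KO2 and KO3. Smpx (chromosome X, 157698910 to 157752591), a small stretch-responsive protein of the costamere, had 121, 90.7 and 90.9 CPM in WT1, WT2 and WT3 and 40.4, 45.4 and 61.1 CPM in KO1, KO2 and KO3. For both, KO1 and KO2 were close to each other and KO3 was higher, and both fell, Tcap to 48.7% of the WT mean (log2 fold change -1.04 with SE 0.20, adjusted p = 0.0248) and Smpx to 48.6% (log2 fold change -1.04 with SE 0.20, adjusted p = 0.0218). Pdlim3 (chromosome 8, 45885461 to 45919548), the actinin-associated LIM protein, had 100.5, 75.9 and 83.4 CPM in WT1, WT2 and WT3 and 35.6, 33 and 53.7 CPM in KO1, KO2 and KO3. Its lowest library was KO2, and it fell to 47.1% of the WT mean (log2 fold change -1.09 with SE 0.21, adjusted p = 0.0248). Myoz2 (chromosome 3, 123006206 to 123035015), the calsarcin of slow and cardiac muscle, which binds calcineurin at the Z-disc, had 16, 19.6 and 14.3 CPM in WT1, WT2 and WT3 and 4.25, 5.46 and 8.83 CPM in KO1, KO2 and KO3. The groups were apart, with KO3 highest of the KO libraries, and Myoz2 fell to 37.2% of the WT mean (log2 fold change -1.43 with SE 0.28, adjusted p = 0.0246).

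The other 13 genes of the Z-disc did not pass in this fit, although 11 of them had every KO library below every WT library. Except for Myoz3 and Xirp2, each of the 13 was called lower in at least 2 of the 8 alternatives. Actn2, the alpha-actinin of all fibres, had 358, 292 and 273 CPM in WT1, WT2 and WT3 and 76.3, 129 and 193 CPM in KO1, KO2 and KO3 (log2 fold change -1.21 with SE 0.30, adjusted p = 0.0563). Actn3, the alpha-actinin of fast fibres, had 41, 34.2 and 25 CPM in WT1, WT2 and WT3 and 12.4, 20.4 and 23.1 CPM in KO1, KO2 and KO3 (log2 fold change -0.84 with SE 0.27, adjusted p = 0.0901). Both were lowest in KO1 and highest, among the KO libraries, in KO3. Myoz1, the calsarcin of fast fibres, had 213, 125 and 183 CPM in WT1, WT2 and WT3 and 49, 59.3 and 117 CPM in KO1, KO2 and KO3 (log2 fold change -1.21 with SE 0.34, adjusted p = 0.0717). Myoz3, the remaining calsarcin, had 22.5, 13.1 and 13.9 CPM in the WT libraries and 4.25, 8.48 and 13.7 CPM in the KO libraries, with KO3 above WT2 (log2 fold change -0.90 with SE 0.40, adjusted p = 0.174). Among the anchoring proteins, Flnc, filamin C, had 346, 215 and 204 CPM in the WT libraries and 57.5, 102 and 141 CPM in the KO libraries (log2 fold change -1.35 with SE 0.34, adjusted p = 0.0543). Xirp1, an actin-binding Xin repeat protein, had 70.3, 45.8 and 45.1 CPM in the WT libraries and 10.9, 23.1 and 30.4 CPM in the KO libraries (log2 fold change -1.32 with SE 0.35, adjusted p = 0.0659). KO1 was the lowest library in both. Des, desmin, the intermediate filament around the Z-disc, had 915, 539 and 704 CPM in the WT libraries and 191, 247 and 456 CPM in the KO libraries (log2 fold change -1.27 with SE 0.34, adjusted p = 0.0638). Cryab, alpha-B crystallin, a chaperone of desmin, had 223, 150.2 and 172 CPM in the WT libraries and 59.2, 73.9 and 129 CPM in the KO libraries (log2 fold change -1.06 with SE 0.29, adjusted p = 0.0703), and exons of Hspb2 on the opposite strand cover 17.0% of its exon bases. Elsewhere exons on the opposite strand covered 0.169% to 5.86% of the exon bases of Neb, Cap2, Myl2, Myl3, Mybpc1, Mybpc2, Ttn, Myom1, Xirp2 and Des.

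Mypn, myopalladin, which ties nebulin to alpha-actinin, had a log2 fold change of -1.20 (adjusted p = 0.0829). For Ldb3, also called Cypher or ZASP, it was -1.10 (adjusted p = 0.0723). Myot, myotilin, stood at -0.68 (adjusted p = 0.057) and Pdlim7, enigma, at -0.64 (adjusted p = 0.0585). In these 4 genes each KO library was below each WT library. Xirp2 (chromosome 2, 67446002 to 67526614), the other Xin repeat protein, was an exception among the Z-disc genes and had 119.5, 118 and 119 CPM in WT1, WT2 and WT3 and 116, 142 and 58.1 CPM in KO1, KO2 and KO3. The WT libraries were nearly equal, KO1 was beside them, KO2 above and KO3 well below (log2 fold change -0.17 with SE 0.28, adjusted p = 0.709), and without KO3 the log2 fold change of Xirp2 was 0.12.

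The ankyrin repeat proteins Ankrd1 and Ankrd2 bind the spring region of titin and are known to respond to stretch. Ankrd2 (chromosome 19, 42036000 to 42045110), the skeletal muscle member, had 12.3, 8.2 and 7.96 CPM in WT1, WT2 and WT3 and 2.81, 2.53 and 4.8 CPM in KO1, KO2 and KO3. All KO libraries were below all WT libraries, and it fell to 35.6% of the WT mean (log2 fold change -1.49 with SE 0.30, adjusted p = 0.0277). Ankrd1, the member best known from the heart, had 1.52, 3.27 and 2.11 CPM in WT1, WT2 and WT3 and 1.23, 1.64 and 0.869 CPM in KO1, KO2 and KO3. Its groups overlapped between WT1 and KO2, and it did not pass (log2 fold change -0.86 with SE 0.36, adjusted p = 0.159). Ankrd1 and Tnni1 were the tested genes closest to the limit of 1 CPM in 3 libraries, and the most abundant untested gene, Tnnc1, reached 0.340 CPM in WT2.

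The sequences just upstream of 6 of these genes are shown for the 5 called genes with the lowest p and for Tnni1, the gene by which GTF2IRD1 was tied to muscle. Each is the 250 bases before the annotated start in RefSeq's GRCm38.p6 tables, 5′ to 3′ on the strand of the gene. Capitals mark E-boxes (CANNTG, the kind of site bound by MyoD and myogenin), TATAAA, CArG boxes (bound by serum response factor) and MEF2 boxes.
Csrp3 (chr7:48848052-48848301, minus strand): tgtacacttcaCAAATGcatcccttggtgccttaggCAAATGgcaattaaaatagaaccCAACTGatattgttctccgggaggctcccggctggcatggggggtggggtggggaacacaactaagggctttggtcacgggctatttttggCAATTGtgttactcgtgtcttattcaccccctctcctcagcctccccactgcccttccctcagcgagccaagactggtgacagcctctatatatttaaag
Actc1 (chr2:114052876-114053125, minus strand): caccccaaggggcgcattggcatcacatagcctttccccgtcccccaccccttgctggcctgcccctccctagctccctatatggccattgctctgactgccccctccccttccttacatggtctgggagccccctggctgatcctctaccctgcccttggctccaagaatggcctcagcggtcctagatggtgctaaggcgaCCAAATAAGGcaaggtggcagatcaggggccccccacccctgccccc
Smpx (chrX:157698723-157698972, plus strand): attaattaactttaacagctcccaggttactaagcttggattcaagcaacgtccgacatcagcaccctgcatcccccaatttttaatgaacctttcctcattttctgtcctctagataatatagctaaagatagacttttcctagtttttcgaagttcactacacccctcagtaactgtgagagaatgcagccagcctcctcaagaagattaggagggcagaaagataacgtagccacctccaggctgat
Pdlim3 (chr8:45885237-45885486, plus strand): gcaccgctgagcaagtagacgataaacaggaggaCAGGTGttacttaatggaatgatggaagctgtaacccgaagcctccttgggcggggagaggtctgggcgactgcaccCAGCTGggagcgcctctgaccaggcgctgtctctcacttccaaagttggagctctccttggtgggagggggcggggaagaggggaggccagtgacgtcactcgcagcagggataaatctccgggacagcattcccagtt
Myoz2 (chr3:123034988-123035237, minus strand): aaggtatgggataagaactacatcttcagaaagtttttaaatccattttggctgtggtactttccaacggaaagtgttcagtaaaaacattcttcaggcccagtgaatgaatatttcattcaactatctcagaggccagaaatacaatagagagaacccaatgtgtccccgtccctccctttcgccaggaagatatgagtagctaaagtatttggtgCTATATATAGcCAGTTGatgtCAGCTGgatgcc
Tnni1 (chr1:135799171-135799420, plus strand): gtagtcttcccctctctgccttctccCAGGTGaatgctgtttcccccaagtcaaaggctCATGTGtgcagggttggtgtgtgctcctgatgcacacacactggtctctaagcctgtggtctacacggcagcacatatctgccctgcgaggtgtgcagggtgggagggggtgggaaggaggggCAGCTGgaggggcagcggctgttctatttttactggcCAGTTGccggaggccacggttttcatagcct

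Csrp3 and Tnni1 had 4 E-boxes each in this window, Pdlim3 and Myoz2 had 2 each, and Actc1 and Smpx had none. Myoz2 had a MEF2 box 33 to 24 bases before the start, with 1 E-box next to it and the other nearer the start, and Actc1 had a CArG box 47 to 38 bases before the start. Pdlim3 also had CATTCC, the core of the MCAT element bound by TEAD factors, on each strand. All positions are counted from the RefSeq start. That start lies 19987 bases from the outermost GENCODE start for Tnni1 and 673 bases from it for Actc1, whose windows both lie wholly inside the GENCODE genes, and 18 to 63 bases from it for the other 4. Promoters were matched for 33 of the 45 tested genes, and letters were searched on both strands, with overlaps between motifs allowed. An E-box was in 84.9% of the 33, against 61.0% of 14669 promoters matched among all gene symbols, whether or not they were tested. The 33 are all of tested genes, so the sets differ in that filter. A CArG box was in 12.1% against 1.19%, a MEF2 box in 15.2% against 2.07%, CATTCC in 27.3% against 11.6% and TATAAA in 18.2% against 9.11%. GGATTA, a sequence that GTF2IRD1 is known to bind in other genes, was in 4 of the 33 (12.1%, against 5.71%), namely Actn2, Klhl41, Lmod2 and Myom1. Of these, Klhl41 and Lmod2 fell and Actn2 and Myom1 did not pass. These shares describe letters in a short window and no binding was measured.

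Across the 6 mice, the highest and lowest library was often the same from gene to gene. KO1 was the lowest KO library for 35 of the 45 genes, KO3 was the highest for 37, and WT1 was the highest WT library for 31. Relative to the mean of the WT libraries, the median of the 45 genes was -1.39 in KO1, -1.15 in KO2 and -0.57 in KO3 on the log2 scale. The 12 other skeletal muscle genes had the same order of KO libraries, with levels relative to the geometric mean of all libraries of 0.484 in KO1, 0.702 in KO2 and 0.992 in KO3. A few genes differed from this. KO3 was the lowest KO library for Neb, Nebl, Mybpc2, Xirp2 and Ankrd1, and KO2 was the lowest for Tpm3, Tnni1, Ttn, Pdlim3 and Ankrd2. Nebl and Xirp2 had the same shape, with KO1 and KO2 near or above WT and KO3 far below, and Trdn, a gene of the muscle reference that codes for triadin, had it too, with 47.1, 49.1 and 47.5 CPM in WT1, WT2 and WT3 and 48.3, 70 and 22.4 CPM in KO1, KO2 and KO3. Over the 45 genes, the log2 ratio of KO3 to the mean of KO1 and KO2 had a Pearson correlation of -0.393 and a Spearman correlation of -0.267 with log2 exon length. That is a description over genes that share the same libraries, and the part of transcript length in these differences was not tested.

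**Figure D2:**
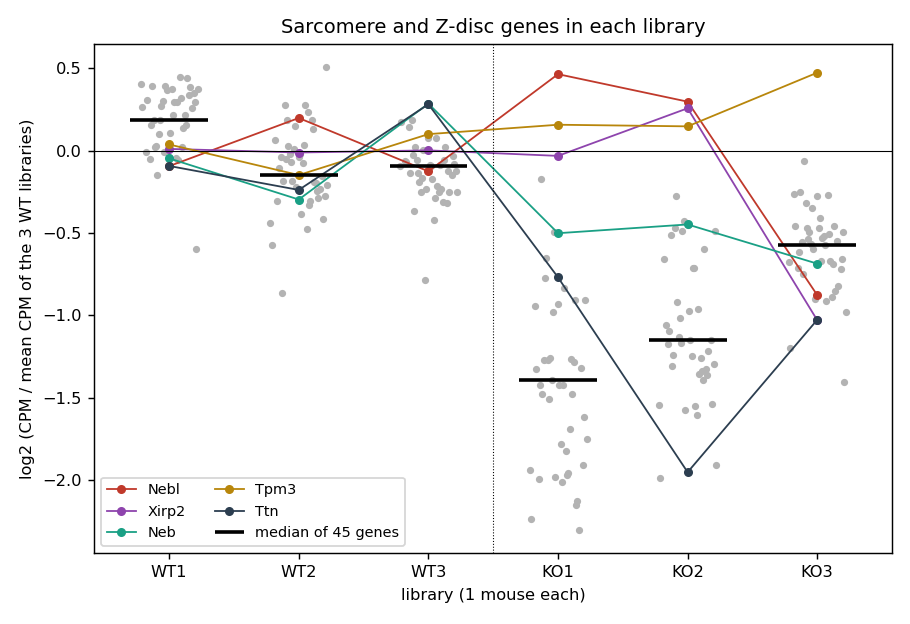
Each of the 45 tested genes in each library as log2 of its CPM over the mean of the WT libraries (y axis), with the median of the 45 genes as a black bar and Nebl, Xirp2, Neb, Tpm3 and Ttn as coloured lines. The median stands at -1.39 in KO1, -1.15 in KO2 and -0.57 in KO3, while Nebl and Xirp2 are near or above 0 in KO1 and KO2 and below -0.5 in KO3.

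Levels per length show which isoforms this muscle uses. In CPM per kilobase of exon, Acta1 was highest in the WT libraries (1789.8 ± 534, SD), followed by Tnnt3 (779 ± 81.4), Mylpf (697 ± 139), Tnni2 (510.4 ± 65.8), Tpm2 (416 ± 91.1), Tcap (391 ± 55.8) and Myl1 (328 ± 61.7). Tnnt3 and Mylpf differed by less than the SD of Mylpf, and Tpm2 and Tcap by less than the SD of either. The same 7 genes had KO levels of 733 ± 343 for Acta1, 388 ± 111 for Tnnt3, 349 ± 108 for Mylpf, 246 ± 88.8 for Tnni2, 223 ± 71.7 for Tpm2, 190.1 ± 47.5 for Tcap and 177 ± 49.5 for Myl1. The slow isoforms were far below, with Tnnt1 at 3.88 ± 0.36 and Tnni1 at 0.56 ± 0.225 CPM per kilobase in the WT libraries. The fast gene was not the higher one in every pair. Actn2 stood at 81 ± 11.7 against 11.5 ± 2.77 for the fast Actn3, and Mybpc1 at 80 ± 0.525 against 7.27 ± 2.74 for the fast Mybpc2. Of 7 listed slow-type genes, Tnnt1, Tnni1, Tnnc1, Myl2, Myl3, Tpm3 and Myoz2, 4 were tested and 1, Myoz2, fell, with a median log2 fold change of -0.76. That list leaves out Mybpc1, and with Mybpc1 added the median of the 5 tested genes was -0.58. Of the 9 fast-type genes, 8 were tested and 2, Tnnt3 and Tnni2, fell, with a median of -0.94. The 10 genes that are also common outside skeletal muscle had a median of -0.87, and 1 of them, Pdlim3, fell.

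**Figure D3:**
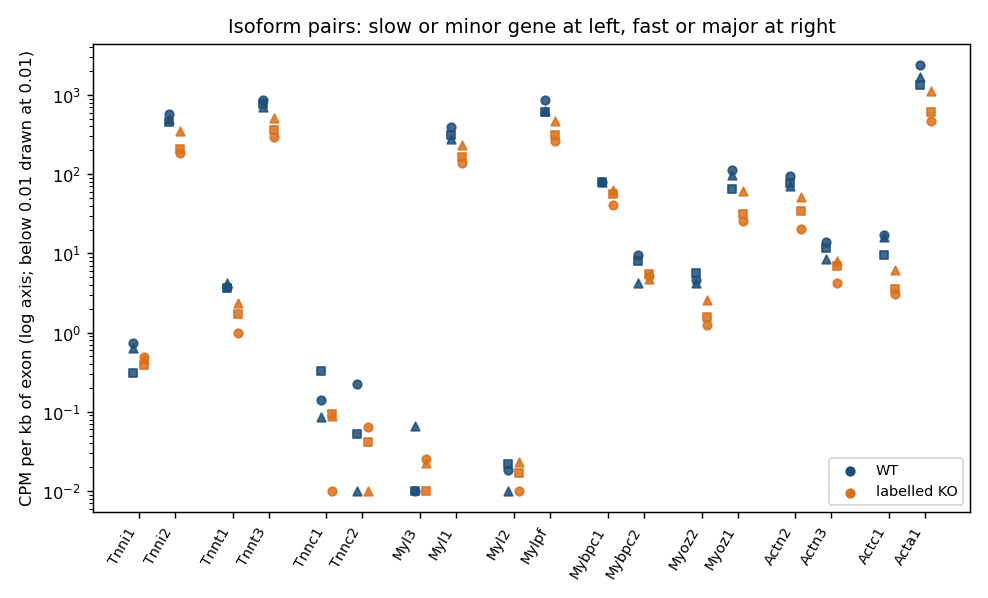
Levels of related genes in each library, in CPM per kilobase of exon on a log axis, with WT at left and KO at right of each gene and values below 0.01 drawn at 0.01. The fast troponins and light chains other than Tnnc2 lie far above their slow partners, Tnnc1, Tnnc2, Myl3 and Myl2 lie near 0, and Mybpc1 lies above Mybpc2.

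Ratios of related genes within a library do not depend on how libraries are scaled, so they compare related transcripts with each other, not their amount. Which cells of the lip gave the counts was not tested. Of 9 pairs compared, 6 had both genes tested and 3 of these did not overlap between genotypes. The log2 ratio of Tnni1 to Tnni2 was -8.35, -9.22 and -8.34 in the WT libraries and -7.24, -7.75 and -8.24 in the KO libraries. Slow troponin I was a larger part of the pair in each KO library, by a mean of 0.89, and the ratio rests on 26 to 73 counts of Tnni1 in a library. The log2 ratio of Actn2 to Actn3 was 3.12, 3.09 and 3.45 in the WT libraries and 2.62, 2.67 and 3.06 in the KO libraries. For Actc1 to Acta1 it was -7.03, -7.03 and -6.63 in the WT libraries and -7.18, -7.34 and -7.42 in the KO libraries. The first gene was a smaller part in each KO library in both pairs, by -0.44 for Actn2 to Actn3 and -0.41 for Actc1 to Acta1. Each of the 3 differences had p = 0.1 in the two-sided exact permutation test, the smallest that 3 against 3 libraries can give, and 0.3 after adjustment over the 9 pairs, so none could pass. Tnnt1 to Tnnt3 (mean difference -0.24), Mybpc1 to Mybpc2 (-0.18) and Myoz2 to Myoz1 (-0.20) overlapped between genotypes.

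**Figure D4:**
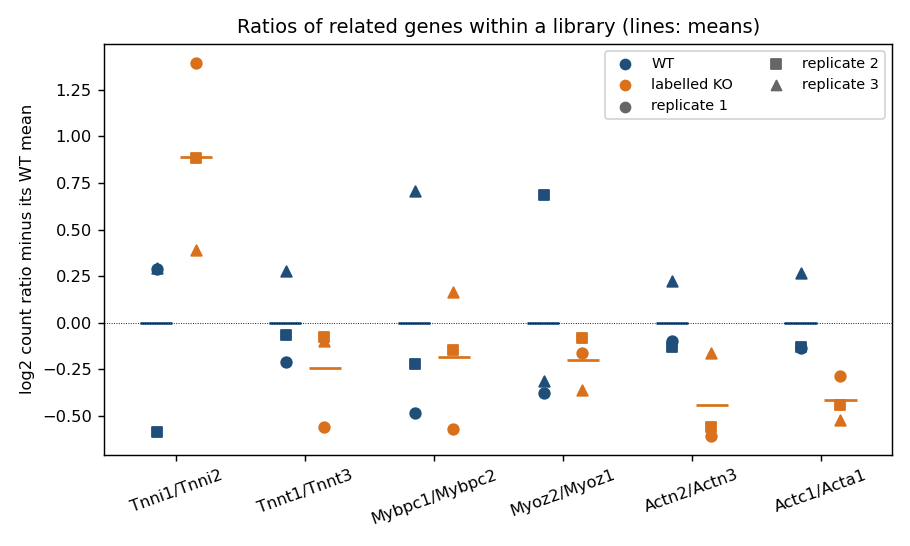
Log2 ratio of the counts of 2 related genes in each library, minus the mean of the WT libraries (y axis), for the 6 pairs with both genes tested; lines are group means and symbols are replicates. Tnni1 to Tnni2 is higher in each KO library, Actn2 to Actn3 and Actc1 to Acta1 are lower in each, and the other 3 pairs overlap.

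Scaled to the 12 other skeletal muscle genes in place of the whole library, the sarcomere genes centred near 0. In that fit 0 of the 45 were lower and 2 were higher, with 4 at an unadjusted p under 0.05 in either direction, while the median of all tested genes stood at 1.04 and 64.4% of tested genes were called higher and 0.0933% lower. The median of the 45 was -0.01. Tpm3 was higher (log2 fold change 1.32, adjusted p = 0.0108), as was Nebl (1.25, adjusted p = 0.0340), beside 1.04 over all genes. Xirp2 came next (0.99, adjusted p = 0.0581). At the other end, Actc1 stood at -0.75 (adjusted p = 0.0634), Ankrd2 at -0.50 (adjusted p = 0.213), Myoz2 at -0.48 (adjusted p = 0.222) and Mybph at -0.43 (adjusted p = 0.228). With the adult fast myosin heavy chains Myh1, Myh2 and Myh4 as the reference, the median of the 45 was -0.31 and 32 of them were negative. In that fit 4 were lower, against 0.280% of all tested genes: Actc1 (-1.04), Ankrd2 (-0.79), Myoz2 (-0.74) and Mybph (-0.72). In the same fit 1 was higher, Tpm3 (0.99), against 59.1% of all tested genes, and these 5 had adjusted p of 0.0063 to 0.0293 by edgeR's quasi-likelihood test. The median of all tested genes was 0.72 in that fit. For the first reference, the count of 2 higher varied with the left-out library, as did the share of all tested genes called higher. It was 7 without KO3 (83.0% of all tested genes), 3 without WT2 (55.9%), 1 without KO1 (28.7%), 0 without WT1 (7.25%) and 0 without WT3 (7.82%). The count of 0 lower was 1, Actc1, without KO3, where 0.169% of all tested genes were lower.

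Genes that build, repair and regulate the sarcomere but are not among the 49 had mostly negative log2 fold changes as well. Of 26 such genes, all tested, 2 fell and 0 rose, against 2.09% and 4.38% of all tested genes. With edgeR's exact test 18 fell, against 7.15%, and with DESeq2 16 fell, against 7.61%, and 0 rose with either. Of the 26, 25 had a negative log2 fold change and 17 had every KO library below every WT library, against 18.1% of all tested genes, with a median of -0.82. The 2 were both ubiquitin ligases of the MURF family, and the third of that family, Trim63, did not pass (log2 fold change -0.98, adjusted p = 0.0939). Trim54 had 28.3, 22.9 and 24 CPM in the WT libraries and 8.03, 9.27 and 16.2 CPM in the KO libraries (log2 fold change -1.17 with SE 0.27, adjusted p = 0.0433). Trim55 had 12.3, 9.95 and 9.98 CPM in the WT libraries and 4.4, 5.62 and 6.26 CPM in the KO libraries (log2 fold change -0.98 with SE 0.20, adjusted p = 0.0277). Neither group overlapped the other in these genes. Hspb7, a small heat shock protein, had the lowest log2 fold change of the 26 (log2 fold change -1.98 with SE 0.52, adjusted p = 0.0638), with 253, 154 and 177 CPM in the WT libraries and 36.9, 18.3 and 92.9 CPM in the KO libraries. The count of 2 was 19 without KO3, against 16.2% of all tested genes, and 0 without any other library. Of the 12 skeletal muscle reference genes, 1 fell, Pvalb, the calcium buffer of fast fibres (log2 fold change -1.17 with SE 0.25, adjusted p = 0.0343), and 11 had no overlap between genotypes, all but Trdn.

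Markers of other tissues were measured beside them. The 8 keratinocyte genes summed to 27056 to 32058 CPM in the WT libraries and 38975 to 53102 CPM in the KO libraries, and 0 of the 8 passed in edgeR's quasi-likelihood test, with 4 at an unadjusted p under 0.05. The higher sum came mainly from Krt1 and Krt10, the median log2 fold change of the 8 was 0.12, and Krt5 (log2 fold change -0.04, adjusted p = 0.918), Krt15 (log2 fold change -0.36, adjusted p = 0.166) and Lor (log2 fold change -0.32, adjusted p = 0.522) were not higher. The 6 fibroblast genes summed to 6355 to 8325 CPM in the WT libraries and 2730.4 to 6660.1 CPM in the KO libraries, with KO1 lowest and KO3 highest of the KO libraries. The 3 collagens carried that order of the sum, while Dcn and Lum were lowest in KO3 among the KO libraries. Of the 6, 0 passed, adjusted or not. The median log2 fold change of the smooth muscle genes was -0.49, and 1 of the 7 tested, Tagln, fell (log2 fold change -0.59, adjusted p = 0.0437) while Myh11, their defining myosin, stood at -0.05 (adjusted p = 0.839). Of 9 cardiac genes, 4 were tested and 1, Nppb, was higher (log2 fold change 2.18 with SE 0.36, adjusted p = 0.0124). Among 6 markers of developing muscle, Myh3 (0 to 5 counts in any library) and Chrng (0 to 3 counts) were near 0, and Chrna1, Ncam1, Myog and Myh8 (23 to 317 counts) were tested. Of these 4, 1, Ncam1, fell (log2 fold change -0.96 with SE 0.23, adjusted p = 0.0482). The 5 adipocyte genes summed to 77.3 to 98.2 CPM in the WT libraries and 52.5 to 55.4 CPM in the KO libraries, and 1 of them, Fabp4, fell (log2 fold change -0.65, adjusted p = 0.0303). The 5 endothelial genes summed to 175 to 202 CPM in the WT libraries and 115 to 205 CPM in the KO libraries, and 0 passed, with 1 at an unadjusted p under 0.05. The part of these other tissues in the lower sarcomere genes was not tested.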

How the data were processed

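The samples were 3 WT and 3 KO libraries from top lip. The deposited values are counts of reads per gene, without normalization. Paired-end reads had been aligned by the authors to GRCm38 using TopHat2 2.0.8 and Bowtie2 2.1.0, as the submitters' processing notes and methods name them, and reads unique to a gene had been counted with HTSeq. The strand setting is not given in the sources used here.

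A gene was kept if it reached 1 CPM in 3 or more libraries, 15009 in all, which held 99.8% of the counts of each library, and 0 columns were left unused. Libraries were scaled by TMM and compared with edgeR 4.0.16 (glmQLFit with legacy=FALSE, glmQLFTest) in R 4.3.3, with Benjamini-Hochberg adjustment over all tested genes and a threshold of 0.05. Total counts were 20164081 to 29491767, and limits based on 3 counts cover counting error only. Each library is 1 mouse. In a further fit the geometric mean CPM of 12 skeletal muscle genes (pseudocount 0.5 counts) replaced the scaling. Ratios of related genes used counts plus 0.5 and exact permutation tests. Exon lengths, overlaps and 100-base stretches came from GENCODE M21 on GRCm38, and promoters from RefSeq tables of GRCm38.p6. Positions are 1-based.

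The members and all gene lists were chosen with earlier results of these data known. Named with every library were the members that passed, the lowest and highest p of each role, both genes of each pair, those the study names, and the exceptions Neb, Tpm3 and others met in the values. The 8 alternatives besides leaving out each library were edgeR's exact test, DESeq2 1.42.0, the older quasi-likelihood fit, DESeq2's size factors, library size alone, no filter, a minimum of 10 counts per library, and a replicate block. Protein sequences were not used here.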

Additional observations from a re-analysis of the deposited data

How the results depend on the processing

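The count of 12 sarcomere genes called lower stood against 2.09% of all tested genes. It was 32 with edgeR's exact test, against 7.15%, and 34 with DESeq2's Wald test, against 7.61%, both holding all 12. With the other tools, scalings and filters tried without a block it was 10 to 13. Over the 6 fits that left out 1 library it ranged from 0 to 37, against 0.122% to 16.2% of all tested genes. The median log2 fold change of the 45 ranged from -1.25 to -0.78 over these 6 fits. For the 26 other sarcomere genes, the count of 2 was 18 with the exact test, 16 with DESeq2, 1 with the replicate block and 0 to 19 over the left-out libraries. Relative to the muscle reference, 4 were lower and 1 higher with the adult fast myosin heavy chains as reference, 1 was higher with the replicate block, and left-out libraries gave 0 to 1 lower and 0 to 7 higher.

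Replicate numbers are shared by label only. For that reason the pairing was not taken as real. The deviations of same-numbered libraries correlated at -0.193, 0.313 and 0.332, and WT2 correlated best with KO1. Deviations were taken from the mean of each genotype, so these correlations depend on each other and cannot decide whether libraries were paired. The replicate block gave 9 genes called lower, of which 7 were among the 12 (not Tnnt3, Tnni2, Lmod2, Klhl41 or Mybph), and a log2 fold change of -0.026 for Nebl.

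Over the left-out libraries the log2 fold change of Nebl ranged from -0.11 (without KO1) to 0.39, and that of Xirp2 from -0.39 to 0.12 (without KO3). The difference in log2 ratio ranged from -0.42 to 0.17 for Mybpc1 to Mybpc2, above 0 without WT3 and without KO1, and from -0.39 to 0.14 for Myoz2 to Myoz1, above 0 without WT2. The cause was not tested. With 3 mice a genotype, no ratio could pass an exact test, and Tnnc1, Tnnc2, Myl2 and Myl3 had too few counts to be compared.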
